A study of Mus musculus with 8 samples.

Results

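The genes described here build or regulate the contacts and the apical-basal polarity of epithelial cells. They were taken by symbol from a list of 37 genes, and all 37 were found among the 22479 gene symbols of the deposited array table. They fall into 10 roles: the adherens junction cadherin Cdh1, 9 claudins, 5 other tight junction membrane proteins, 3 tight junction scaffolds, 2 apical polarity genes, 8 desmosome genes, the adhesion molecule Epcam, 2 splicing regulators, 4 membrane serine proteases and inhibitors, and 2 transport genes. In epithelia, tight junctions seal the space between neighbouring cells, with claudins setting which ions pass, while adherens junctions and desmosomes tie the cells together through actin and keratin filaments. In liver such contacts are known from hepatocytes, which close off bile canaliculi with them, from the cholangiocytes that line the bile ducts and from the mesothelium that covers the organ. Stellate cells and fibroblasts are mesenchymal and are not known for claudins or desmosomes.

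Whole liver of wild-type mice and 7 preparations of sorted liver cells were each profiled on 1 Affymetrix mouse array, 8 in all. All mice were adult and of C57Bl6 background, and all sorted cells came from Col1a1-GFP transgenic animals, in which a collagen promoter drives the fluorescent protein. The fractions were VitaminA+ hepatic stellate cells (HSC), cells negative for vitamin A and positive for GFP (VitA-GFP+ cells), GPM6A+ mesothelial cells (MC) and portal fibroblasts (PF), for which the labels give no gate. HSC, VitA-GFP+ cells and MC were taken from mice with no stated injury, PF from sham-operated mice, and HSC, PF and MC again from mice with biliary fibrosis. Sham arrays of HSC and MC are not among the 8, so these fractions of biliary fibrosis are compared with the same fraction without a stated injury. Probes were made from 20 ng of amplified total RNA, and the sources used here do not say how many animals lie behind an array.

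No group has a second array, so there is no replicate check, error or p value, and every difference below is between 2 arrays. Levels are log2 of the normalized intensity of the gene's brightest probe set, and differences are on the same log2 scale. They are compared within a gene and not between genes. The words 4-fold higher or lower are used for a difference of 2 or more in which the brighter of both arrays reaches that array's median. In such preparations fewer cells of a type and less RNA per cell cannot be told apart. The medians of the 8 arrays ran from 5.31 to 5.68. The 3'/5' ratio of the Gapdh control probes, which is high where the labelled product stays near the 3' end, was 1.42 to 2.01 in whole liver and the fractions with no stated injury, 5.68 in HSC of biliary fibrosis, and 10.2 to 13.8 in the PF arrays and in MC of biliary fibrosis. Its part in the results was not tested. The sample codes place both PF arrays in the same code series, while the HSC and MC pairs cross code series. Every comparison with VitA-GFP+ cells crosses code series too. All 14 HSC markers were at or above the array median in both HSC arrays, all 12 mesothelial markers in both MC arrays and all 13 portal fibroblast markers in both PF arrays. These counts do not set a fraction apart: all genes of the 3 lists were at or above the median in VitA-GFP+ cells too, as were all HSC markers in sham PF and 13 of 14 in whole liver.

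Promoters are shown for 3 genes that were highest in PF of biliary fibrosis, Cldn7, Cldn4 and Epcam, and for Cldn15, which was highest in MC. The E-box CAGGTG, which reads CACCTG on the other strand, is the sequence bound by the Zeb and Snail repressors of epithelial genes. It was searched on both strands from 250 bases before to 50 bases after the annotated start in RefSeq promoters of GRCm38.p6, which hold 24 of the 37 genes. It lay in a promoter of 15 of the 24 genes (62.5%), against 22.6% of all 27025 genes with a promoter there. Counted by promoter it lay in 19 of 32 (59.4%) against 20.2% of all 32851 promoters of the same length. The grainyhead motif AACCGGTT, which is its own reverse complement, was in 0 of the 24 and in 0.174% of all genes. Sequences are written 5' to 3' on the strand of the gene with E-boxes in capitals, and the windows are chr11:69965171-69965470 on the plus strand for the downstream start of Cldn7, chr5:134946885-134947184 on the minus strand for Cldn4, chr17:87635729-87636028 on the plus strand for Epcam and chr5:136967619-136967918 on the plus strand for Cldn15.
Cldn7: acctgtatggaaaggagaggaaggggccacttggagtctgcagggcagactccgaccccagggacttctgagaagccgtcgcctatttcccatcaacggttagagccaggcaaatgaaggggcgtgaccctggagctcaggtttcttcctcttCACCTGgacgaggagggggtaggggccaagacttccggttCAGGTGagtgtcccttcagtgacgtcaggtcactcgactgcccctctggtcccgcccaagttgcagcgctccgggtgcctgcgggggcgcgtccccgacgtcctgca
Cldn4: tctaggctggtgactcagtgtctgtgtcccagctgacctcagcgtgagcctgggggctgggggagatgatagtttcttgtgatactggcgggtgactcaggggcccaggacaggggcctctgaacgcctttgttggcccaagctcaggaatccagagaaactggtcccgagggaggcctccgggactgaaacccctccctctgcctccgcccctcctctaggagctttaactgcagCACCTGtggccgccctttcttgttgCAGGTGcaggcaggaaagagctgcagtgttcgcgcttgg
Epcam: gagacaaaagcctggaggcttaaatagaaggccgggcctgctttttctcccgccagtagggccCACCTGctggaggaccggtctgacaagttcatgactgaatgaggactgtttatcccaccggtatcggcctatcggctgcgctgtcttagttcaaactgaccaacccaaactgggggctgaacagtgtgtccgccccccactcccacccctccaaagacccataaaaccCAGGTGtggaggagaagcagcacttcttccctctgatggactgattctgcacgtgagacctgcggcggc
Cldn15: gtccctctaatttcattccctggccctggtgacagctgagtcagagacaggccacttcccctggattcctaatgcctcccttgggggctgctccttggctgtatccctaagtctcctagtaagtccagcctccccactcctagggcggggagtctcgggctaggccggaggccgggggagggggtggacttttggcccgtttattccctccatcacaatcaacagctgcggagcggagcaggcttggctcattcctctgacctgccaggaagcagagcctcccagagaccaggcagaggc
The Cldn7 window has E-boxes 97 to 92 and 57 to 52 bases upstream of the start, and that of Epcam has them 187 to 182 and 19 to 14 bases upstream. Cldn4 has its pair on either side of the start, the upstream motif at 14 to 9 bases. No E-box of these letters lies in the Cldn15 window or in that of the upstream start of Cldn7. The windows shown are examples and do not set these arrays apart. Among other genes highest in PF of biliary fibrosis, Ap1m2 has 4 E-boxes, Dsp 1, Marveld2 1 in each window and Spint1 0. Among other genes highest in MC with no stated injury, Spint2 has 3, F11r 1, Cgn 0 and Tjp1 0. Cldn4 and Cldn3 on chromosome 5 have 0 protein-coding genes between them, as do Ocln and Marveld2 on chromosome 13. A match of letters is a description and not evidence of binding.

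Across the arrays these genes varied more than most. The range from the lowest to the highest array had a median of 5.07 over the 37 genes, against 2.13 over all genes. It ran from 0.90 for Esrp2 to 9.36 for Dsp and exceeded 2 in 33 genes. HSC with no stated injury was the lowest array for 20 of the 37 genes. PF of biliary fibrosis was the highest for 13, whole liver for 9, and MC with no stated injury and MC of biliary fibrosis for 6 each. The number of genes at or above the array median was 12 of 37 in HSC, 18 in sham PF, 22 in MC, 22 in HSC of biliary fibrosis, 24 in MC of biliary fibrosis, 25 in whole liver, 27 in VitA-GFP+ cells and 33 in PF of biliary fibrosis. Over all genes this share lay between 56.1% and 59.9% on every array. Of the 37 genes, 8 were at or above the median on all 8 arrays and 4 on 1 array. How often each array was the lowest or highest over all genes was not counted. Nor was the number of arrays on which each of all genes reached the median.

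**Figure D1:**
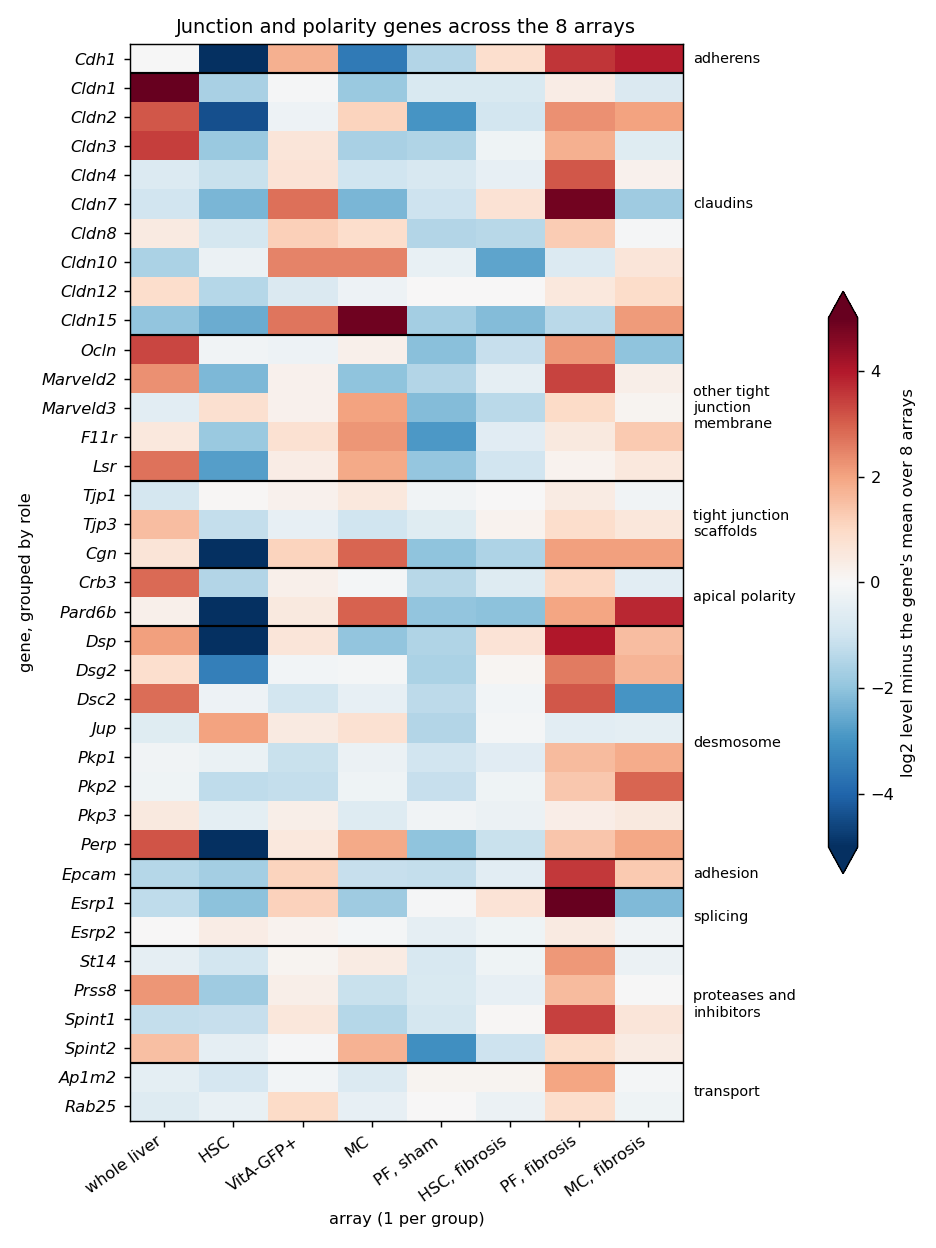
Log2 level of each gene on each array minus that gene's mean over the 8 arrays, with genes in rows by role and arrays in columns (red above the gene's mean, blue below; colours end at -5 and 5). HSC with no stated injury is the lowest array for 20 genes and PF of biliary fibrosis is the highest for 13. The same was not counted over all genes. Tjp1 and, by its brightest probe set, Esrp2 are nearly flat.

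Cdh1 encodes E-cadherin, the core of the epithelial adherens junction. Its level was 7.85 in whole liver, 2.71 in HSC, 9.64 in VitA-GFP+ cells, 4.32 in MC and 6.38 in sham PF, and 8.71, 11.44 and 11.77 in HSC, PF and MC of biliary fibrosis. All 3 fibrosis arrays stood above the 3 arrays of HSC, MC and sham PF. In MC with no stated injury Cdh1 lay below the array median of 5.52, whereas it was higher in VitA-GFP+ cells by 5.31.

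The claudins followed several patterns. Cldn2, which forms a cation pore, was at 10.52 in whole liver, 2.99 in HSC, 7.13 in VitA-GFP+ cells, 8.52 in MC and 4.46 in sham PF, and at 6.46, 9.69 and 9.43 in HSC, PF and MC of biliary fibrosis. HSC and sham PF were below the array median and the other 6 arrays above it. Cldn7, a claudin of bile duct and other epithelia, was at 4.32 in whole liver, 3.01 in HSC, 8.05 in VitA-GFP+ cells, 3.0 in MC and 4.24 in sham PF, and at 5.99, 10.13 and 3.52 in HSC, PF and MC of biliary fibrosis. It was thus high in PF of biliary fibrosis and VitA-GFP+ cells and below the median in both MC arrays. Cldn15, another cation pore, was at 5.17 in whole liver, 4.65 in HSC, 9.79 in VitA-GFP+ cells, 12.01 in MC and 5.44 in sham PF, and at 4.96, 5.79 and 9.26 in HSC, PF and MC of biliary fibrosis. Its 3 high arrays were MC, VitA-GFP+ cells and MC of biliary fibrosis. Cldn1, a sealing claudin of hepatocytes, was at 10.43 in whole liver and between 3.19 and 5.38 elsewhere: 3.41 in HSC, 4.97 in VitA-GFP+ cells, 3.19 in MC, 4.27 in sham PF, and 4.28, 5.38 and 4.29 in HSC, PF and MC of biliary fibrosis. Whole liver was the sole array on which Cldn1 reached the median. Cldn3, also a sealing claudin, was at 10.23 in whole liver, 4.92 in HSC, 7.40 in VitA-GFP+ cells, 5.14 in MC and 5.27 in sham PF, and at 6.55, 8.56 and 6.18 in HSC, PF and MC of biliary fibrosis. Its lowest arrays were HSC, MC and sham PF.

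Of the other claudins, Cldn4 ran from 2.57 in HSC to 6.80 in PF of biliary fibrosis, the only array on which it reached the median. Cldn8 ran from 3.84 in sham PF to 6.58 in PF of biliary fibrosis. Cldn10 was highest in VitA-GFP+ cells (8.58), with MC at 8.56, and lowest in HSC of biliary fibrosis (3.46). Cldn12 was above the median on all arrays, from 9.25 in HSC to 11.58 in MC of biliary fibrosis. The highest array thus differed between claudins: MC for Cldn15, whole liver for Cldn1, and PF of biliary fibrosis for Cldn7 and Cldn4. Cldn15 (9.79) and Cldn7 (8.05) were above the median in VitA-GFP+ cells too. Cldn4 stayed below the 75th percentile of PF of biliary fibrosis (7.89).

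**Figure D2:**
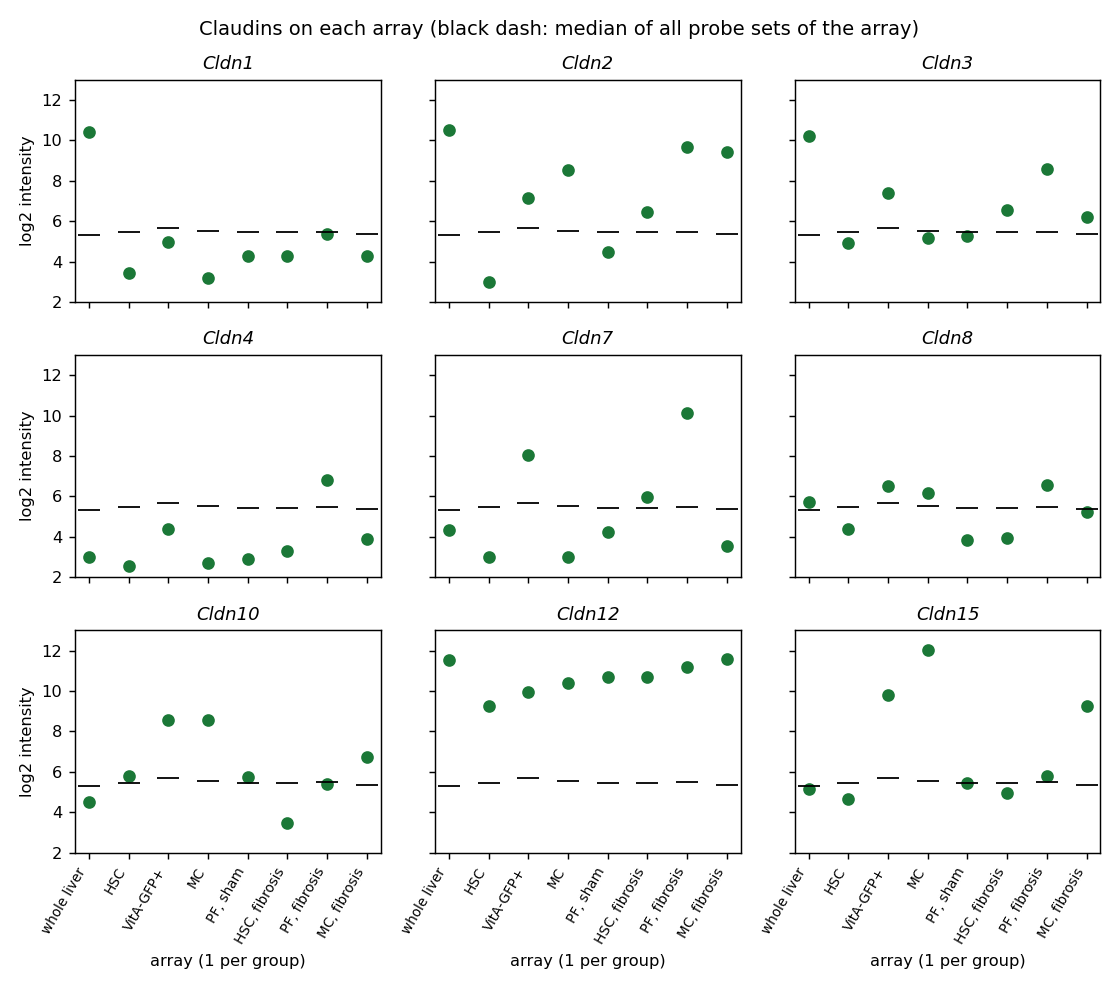
Log2 intensity (vertical axis) of the 9 claudins on each of the 8 arrays, 1 point per array, with a black dash at the median of all non-control probe sets of that array. Cldn1 stands out in whole liver at 10.43, Cldn7 in PF of biliary fibrosis at 10.13 and Cldn15 in MC at 12.01, while Cldn12 lies above the dash on every array.

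Among the other tight junction membrane proteins, Marveld2 (tricellulin), which sits where 3 cells meet, was at 7.93 in whole liver, 3.43 in HSC, 5.86 in VitA-GFP+ cells, 3.66 in MC and 4.19 in sham PF, and at 5.21, 9.04 and 5.97 in HSC, PF and MC of biliary fibrosis. Its highest array was PF of biliary fibrosis, ahead of whole liver. Lsr, an angulin that recruits tricellulin, was at 10.48 in whole liver, 5.03 in HSC, 8.15 in VitA-GFP+ cells, 9.67 in MC and 5.84 in sham PF, and at 6.81, 7.95 and 8.30 in HSC, PF and MC of biliary fibrosis. HSC was the sole array on which Lsr was below the median. Ocln (occludin) was at 9.09 in whole liver, 5.56 in HSC, 5.48 in VitA-GFP+ cells, 5.99 in MC and 3.65 in sham PF, and at 4.60, 7.91 and 3.73 in HSC, PF and MC of biliary fibrosis. Occludin was high in whole liver and in PF of biliary fibrosis. F11r, the junctional adhesion molecule A, was above the median on all 8 arrays, from 6.31 in sham PF to 11.38 in MC. Marveld3 ran from 3.03 in sham PF to 7.21 in MC.

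The scaffolds and polarity genes separated a gene common to all fractions from others with wide ranges. Tjp1, the scaffold that links tight junctions and other contacts to actin, was at 10.65 in whole liver, 11.58 in HSC, 11.72 in VitA-GFP+ cells, 12.06 in MC and 11.33 in sham PF, and at 11.55, 11.95 and 11.33 in HSC, PF and MC of biliary fibrosis. Whole liver was its lowest array, and no difference between fractions reached 1 in either direction apart from those against whole liver. Cgn (cingulin), which binds tight junctions to the cytoskeleton, was at 8.92 in whole liver, 3.01 in HSC, 9.39 in VitA-GFP+ cells, 11.17 in MC and 6.23 in sham PF, and at 6.71, 10.33 and 10.33 in HSC, PF and MC of biliary fibrosis. HSC was far below all others. Tjp3, a scaffold of epithelial tight junctions, was at 7.23 in whole liver, 4.47 in HSC, 5.24 in VitA-GFP+ cells, 4.68 in MC and 5.06 in sham PF, and at 5.84, 6.56 and 6.24 in HSC, PF and MC of biliary fibrosis. Whole liver and all 3 fibrosis arrays were above the median for Tjp3. Pard6b, a partner of atypical protein kinase C in the Par polarity complex, was at 8.25 in whole liver, 2.65 in HSC, 8.48 in VitA-GFP+ cells, 10.95 in MC and 6.02 in sham PF, and at 5.96, 9.96 and 11.77 in HSC, PF and MC of biliary fibrosis. Both MC arrays were its highest. Crb3, the Crumbs protein of epithelial apical membranes, was at 8.61 in whole liver, 4.28 in HSC, 6.01 in VitA-GFP+ cells, 5.66 in MC and 4.38 in sham PF, and at 5.11, 6.81 and 5.22 in HSC, PF and MC of biliary fibrosis. Whole liver was the highest array for Crb3.

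The desmosome genes were led by Dsp (desmoplakin), which anchors keratin filaments. It was at 10.48 in whole liver, 3.08 in HSC, 9.03 in VitA-GFP+ cells, 6.45 in MC and 6.93 in sham PF, and at 9.11, 12.44 and 9.98 in HSC, PF and MC of biliary fibrosis. HSC was the sole array below the median. Perp, a tetraspan protein of desmosomes, was at 12.13 in whole liver, 3.22 in HSC, 9.49 in VitA-GFP+ cells, 10.86 in MC and 6.95 in sham PF, and at 7.84, 10.34 and 10.91 in HSC, PF and MC of biliary fibrosis. It too was below the median in HSC and above it elsewhere. Dsc2, a desmosomal cadherin, was at 10.97 in whole liver, 7.92 in HSC, 7.25 in VitA-GFP+ cells, 7.78 in MC and 6.88 in sham PF, and at 8.05, 11.28 and 5.23 in HSC, PF and MC of biliary fibrosis. Whole liver and PF of biliary fibrosis were high, and MC of biliary fibrosis was the lowest. The partner cadherin Dsg2 ran from 7.19 in HSC to 13.21 in PF of biliary fibrosis. Jup (plakoglobin), an armadillo protein shared with adherens junctions, ran the other way, from 9.22 in sham PF to 12.69 in HSC, and Jup was the 1 gene of the 37 that was highest in HSC. The plakophilin Pkp2 ran from 7.86 in HSC to 12.05 in MC of biliary fibrosis, and Pkp1 and Pkp3 stayed near or below the median, with their highest values at 5.47 and 5.53 in MC of biliary fibrosis.

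Epcam, an adhesion molecule of bile duct and other epithelia, was at 4.88 in whole liver, 4.62 in HSC, 7.43 in VitA-GFP+ cells, 5.16 in MC and 5.13 in sham PF, and at 5.76, 9.85 and 7.62 in HSC, PF and MC of biliary fibrosis. PF of biliary fibrosis was highest. Its other probe set differed, standing at 5.84 in sham PF, 3.86 in VitA-GFP+ cells and 9.99 in MC of biliary fibrosis. Esrp1, a regulator of epithelial splicing, was at 4.50 in whole liver, 3.72 in HSC, 6.89 in VitA-GFP+ cells, 3.99 in MC and 5.71 in sham PF, and at 6.43, 11.25 and 3.55 in HSC, PF and MC of biliary fibrosis. PF of biliary fibrosis exceeded every other array by over 4. Its relative Esrp2 was at 10.04 in whole liver, 10.39 in HSC, 10.20 in VitA-GFP+ cells, 9.93 in MC and 9.57 in sham PF, and at 9.83, 10.47 and 9.85 in HSC, PF and MC of biliary fibrosis. That brightest probe set carries a suffix for matches to several transcripts, and the other probe set of Esrp2 was not flat: 9.84 in whole liver, 4.24 in HSC, 5.89 in VitA-GFP+ cells, 6.17 in MC, 4.92 in sham PF, and 6.08, 7.71 and 7.67 in HSC, PF and MC of biliary fibrosis.

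Spint1, an inhibitor that holds the membrane protease matriptase in check, was at 5.25 in whole liver, 5.29 in HSC, 7.03 in VitA-GFP+ cells, 5.03 in MC and 5.56 in sham PF, and at 6.50, 9.87 and 7.07 in HSC, PF and MC of biliary fibrosis. PF of biliary fibrosis was highest. Its relative Spint2 was at 10.003 in whole liver, 8.07 in HSC, 8.47 in VitA-GFP+ cells, 10.27 in MC and 5.46 in sham PF, and at 7.46, 9.45 and 8.92 in HSC, PF and MC of biliary fibrosis. Sham PF was lowest for Spint2. Prss8 (prostasin), a protease of the same cascade, was at 7.10 in whole liver, 3.11 in HSC, 5.18 in VitA-GFP+ cells, 3.77 in MC and 4.15 in sham PF, and at 4.50, 6.50 and 4.90 in HSC, PF and MC of biliary fibrosis, so that whole liver and PF of biliary fibrosis alone reached the median. St14, matriptase itself, ran from 4.43 in HSC to 7.51 in PF of biliary fibrosis. Ap1m2, a subunit of the clathrin adaptor that sorts proteins to the basolateral side, was at 4.02 in whole liver, 3.66 in HSC, 4.35 in VitA-GFP+ cells, 3.83 in MC and 4.62 in sham PF, and at 4.64, 6.48 and 4.39 in HSC, PF and MC of biliary fibrosis. It reached the median in PF of biliary fibrosis and on no other array. Rab25, a GTPase of apical recycling, was at 4.22 in whole liver, 4.50 in HSC, 5.83 in VitA-GFP+ cells, 4.46 in MC and 4.87 in sham PF, and at 4.57, 5.75 and 4.65 in HSC, PF and MC of biliary fibrosis. Its range of 1.61 was among the narrowest.

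In portal fibroblasts, most of the 37 listed genes were higher in biliary fibrosis than after sham surgery. The list was chosen with earlier results of these data known. In the 5 other lists of junction and polarity genes, described further below, 11.8% to 28.6% of genes were 4-fold higher. Of the 37 genes, 25 were 4-fold higher, against 3.61% of all genes, and 0 were 4-fold lower, against 1.74%. All but Cldn10 (-0.31) had a difference above 0, and the median was 3.12, against -0.01 for all genes. The largest differences were those of Cldn7 (5.89), Esrp1 (5.54), Dsp (5.51), Cldn2 (5.23), Cdh1 (5.06) and Marveld2 (4.86). By role, 5 of 9 claudins, all 5 other tight junction membrane proteins, both polarity genes and all 4 proteases and inhibitors were 4-fold higher, as were 5 of 8 desmosome genes, Cdh1 and Epcam. Of the scaffolds 1 of 3 was (Cgn), of the splicing regulators 1 of 2 (Esrp1) and of the transport genes 0 of 2. The other desmosome genes were Jup (0.94), Pkp3 (0.52) and Pkp1, which differed by 2.54 but lay below the median on both arrays. At the low end stood Cldn10, Cldn15 (0.35), Cldn12 (0.49), Pkp3 and Tjp1 (0.62). With the 75th percentile as the minimum level, Cldn4, Cldn8, Marveld3, Crb3, St14 and Prss8 no longer met the rule.

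Several of these genes have another probe set that differed less. The probe sets of Cldn2 ran from -0.54 to 5.23, those of Dsp from -0.04 to 5.51 and those of Cgn from -0.05 to 4.10. Those of F11r ran from -0.05 to 3.37, of Marveld3 from -0.19 to 3.12, of Cldn3 from 1.04 to 3.29, of Crb3 from 0.20 to 2.43 and of Lsr from 0.01 to 2.11. Esrp2 went the other way. Its brightest probe set differed by 0.90, and its other stood at 4.92 in sham PF and 7.71 in biliary fibrosis. For Cldn2, Cgn, F11r, Marveld3, Crb3 and Lsr 1 probe set reached the median on either array, for Dsp a pair did, both past 5. Another probe set of Crb3 fell just short in PF of biliary fibrosis, at 5.473 against a median of 5.478. Without suffixed probe sets Crb3 differed by 0.20 and no longer met the rule. With each gene taken as the mean of its probe sets the median over the 37 genes was 2.35. Marveld3 (0.97), F11r (1.66), Lsr (1.06) and Crb3 (1.03) then no longer met the rule.

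Markers of other cells moved with this pair. All 4 keratins of simple epithelium were 4-fold higher (median 4.35, summed linear intensity 705 in sham PF and 18996 in biliary fibrosis). Of 15 cholangiocyte markers 9 were 4-fold higher and 0 lower (median 2.88, sums 5329 and 12681), and 14 of the 15 were at or above the median in PF of biliary fibrosis against 5 in sham PF. The chloride channel Cftr was at 3.85 and 9.49. Of 18 hepatocyte markers 12 were 4-fold higher (median 3.78, sums 2303 and 22262), of 12 mesothelial markers 4 (median 1.69, sums 13177 and 20418) and of 12 macrophage markers 6 (median 2.12). Portal fibroblast markers had 0 higher and 2 lower of 13 (median -1.08). The part of these cells in the junction gene differences was not tested.

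In hepatic stellate cells, compared between biliary fibrosis and no stated injury, Dsp, Cdh1 and Perp stood furthest apart. Here 9 of 37 genes were 4-fold higher, against 5.66% of all genes, and 3 were 4-fold lower, against 4.63%. The median was 1.08, and 0.10 for all genes. The higher genes were Dsp (6.03), Cdh1 (6.0), Perp (4.62), Cgn (3.70), Dsg2 (3.55), Cldn2 (3.48), Pard6b (3.31), Cldn7 (2.98) and Esrp1 (2.71). In HSC with no stated injury 8 of these 9 were below the array median, the exception being Dsg2 at 7.19. By role, 3 of 8 desmosome genes were higher and 1 lower (median 0.63), and 2 of 9 claudins were higher and 1 lower (median 0.87). The lower genes were Cldn10 (-2.34), Marveld3 (-2.15) and Jup (-2.11), of which Jup stayed high on both arrays, at 12.69 and 10.59. When levels had to reach the 75th percentile instead of the median, 3 genes were higher, Dsp, Cdh1 and Dsg2, and Jup alone was lower. Probe sets ran from 0.10 to 6.03 for Dsp, -0.44 to 3.70 for Cgn, 1.14 to 3.82 for Dsg2, -2.15 to 0.86 for Marveld3, -1.63 to 1.29 for Pkp2, 1.14 to 4.25 for Epcam and -0.56 to 1.84 for Esrp2. All 4 keratins were 4-fold higher in this pair too (median 4.96, sums 73.2 and 4135), as were 7 of 15 cholangiocyte markers (median 1.11), 10 of 18 hepatocyte markers (median 2.10), 10 of 13 portal fibroblast markers (median 4.46), 9 of 12 macrophage markers (median 3.40) and 5 of 12 lymphocyte and neutrophil markers (median 1.73). Their part in the result was not tested.

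In mesothelial cells, Cdh1 was the gene furthest apart, at 4.32 with no stated injury and 11.77 in biliary fibrosis (7.45). Of the 37 genes 7 were 4-fold higher, against 5.92% of all genes, and 3 were 4-fold lower, against 5.99%. The median was 0.52, and 0.21 for all genes. After Cdh1 came Dsp (3.53), Pkp2 (3.12), Epcam (2.46), Marveld2 (2.31), Pkp1 (2.14) and Spint1 (2.04), and the lower genes were Cldn15 (-2.75), Dsc2 (-2.54) and Ocln (-2.26). Perp (0.05), Pard6b (0.82) and Cgn (-0.84), all high on both MC arrays, differed by less than 1. With the 75th percentile as the minimum 3 genes were higher, Cdh1, Dsp and Pkp2, and with the mean over probe sets Cldn15 alone was lower and Pkp2 (1.83) no longer met the rule. Probe sets disagreed for several genes: Ocln ran from -2.26 to 1.21, Marveld3 from -1.86 to 1.69, F11r from -0.89 to 1.12, Lsr from -1.37 to 1.60, Cldn1 from -0.81 to 3.21, Dsg2 from -0.91 to 2.19, Pkp2 from -0.53 to 3.27, Dsp from 1.5 to 3.53, Dsc2 from -2.54 to -0.37 and Epcam from 2.46 to 8.01. Of the 4 keratins 0 were 4-fold higher and 1 was lower (median -0.16, sums 23396 and 18035), of 15 cholangiocyte markers 2 were higher (median 0.92), of 12 mesothelial markers 4 were lower (median -1.15), and of 12 macrophage markers 7 were higher (median 2.63). Also higher were 5 of 12 lymphocyte and neutrophil markers (median 1.61), 4 of 10 endothelial markers with 1 lower (median 1.92), 4 of 14 stellate cell markers (median 0.50) and 4 of 18 hepatocyte markers (median 0.38), while portal fibroblast markers had 1 higher and 1 lower of 13 (median -0.56). Their part in the result was not tested.

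Side by side, 2 of the 37 genes (5.41%) were 4-fold higher in all 3 fibrosis pairs, as were 0.387% of all genes. Cdh1 differed by 5.06 in PF, 6.0 in HSC and 7.45 in MC, and Dsp by 5.51, 6.03 and 3.53. In the PF and HSC pairs alone 7 more (18.9%, and 0.836% of all genes) met the rule: Cldn2, Cldn7, Cgn, Pard6b, Dsg2, Perp and Esrp1. In the PF and MC pairs alone 4 did (10.8%, and 0.334% of all genes), namely Marveld2, Pkp2, Epcam and Spint1. Another 12 (32.4%, and 2.06% of all genes) met it in the PF pair alone and Pkp1 in the MC pair alone (3.87% of all genes). It was met in none by 11 (29.7%, and 88.1% of all genes). These were Cldn1, Cldn10, Cldn12, Cldn15, Tjp1, Tjp3, Jup, Pkp3, Ap1m2, Rab25 and, by its brightest probe set, Esrp2. These pairs have no array in common, but differences between the pairs were not tested.

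**Figure D3:**
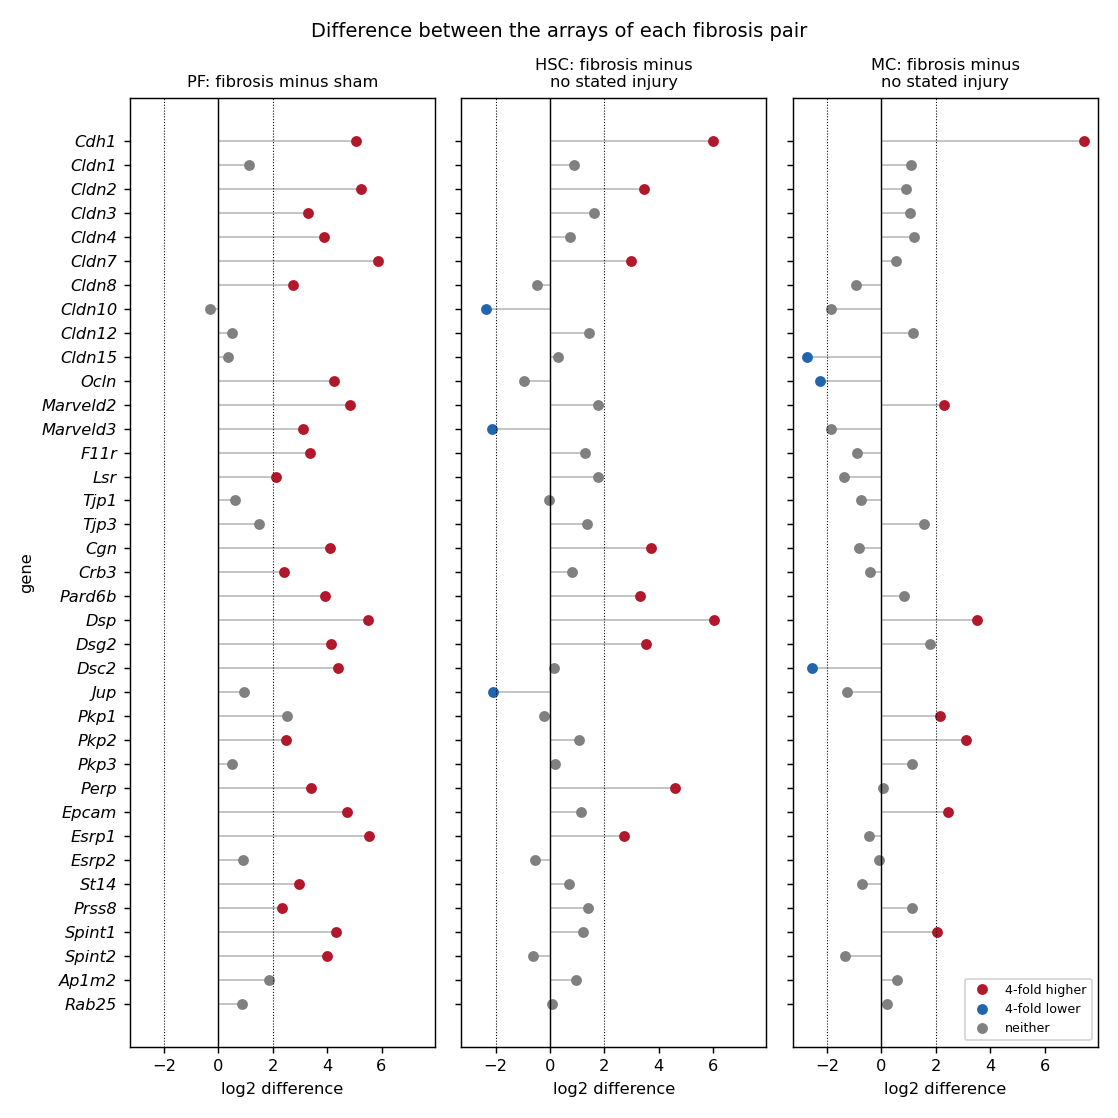
Log2 difference of each gene in the 3 fibrosis pairs (horizontal axis), 1 panel per pair, with dotted lines at -2 and 2 and colours for genes 4-fold higher (red), 4-fold lower (blue) or neither (grey). The PF panel has 25 red points and 0 blue, the HSC panel 9 and 3, and the MC panel 7 and 3.

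With no stated injury, Pard6b, Cgn, Perp, Cldn15 and Cldn2 were below the array median in HSC and each over 5 higher in MC. Of the 37 genes 11 were 4-fold higher, against 4.77% of all genes, and 0 were 4-fold lower, against 4.11%. The median was 0.66, and -0.01 for all genes. Pard6b (8.30), Cgn (8.16), Perp (7.63), Cldn15 (7.36), Cldn2 (5.53) and Lsr (4.64) led, followed by F11r (4.05). Cdh1 differed by 1.61 with both arrays below the median, and the lowest difference was that of Jup (-1.24). Probe sets ran from 3.60 to 8.16 for Cgn, 1.14 to 5.53 for Cldn2, -0.03 to 4.64 for Lsr, -0.06 to 4.05 for F11r, -0.27 to 3.37 for Dsp, 1.60 to 3.76 for Dsg2 and -0.46 to 1.93 for Esrp2. All 4 keratins (median 7.95), all 12 mesothelial markers (median 8.96) and 9 of 13 portal fibroblast markers (median 4.74) were 4-fold higher in MC, and 11 of 18 hepatocyte markers were lower (median -3.22). Of 7 repressors of epithelial genes 4 were 4-fold lower in MC (median -2.50): Zeb2 was at 12.57 in HSC and 6.33 in MC, Snai2 at 10.62 and 5.79, Snai1 at 8.03 and 3.79, and Twist2 at 7.33 and 4.82. Zeb1 was above the median on both arrays, at 11.52 and 10.91.

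Against VitA-GFP+ cells, MC with no stated injury had 2 genes 4-fold higher, Pard6b (2.47) and Cldn15 (2.22), against 4.3% of all genes. There were 7 genes 4-fold lower, against 6.54%: Cdh1 (-5.31), Cldn7 (-5.05), Esrp1 (-2.90), Dsp (-2.58, probe sets -2.65 to -0.12), Epcam (-2.27), Cldn3 (-2.26) and Marveld2 (-2.20). The median was -0.03, and 0.13 with array medians made equal. With the 75th percentile as the minimum 3 genes were lower (Cdh1, Cldn7 and Dsp), and with quantile normalization repeated 4 were higher. Cholangiocyte markers were 4-fold lower in MC for 6 of 15 (median -1.69), hepatocyte markers for 11 of 18 (median -3.47), macrophage markers for 10 of 12 (median -4.56) and endothelial markers for 9 of 10 (median -5.33), while keratins had 1 of 4 higher (median 0.34). Whether these cells account for the genes lower in MC was not tested.

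Within biliary fibrosis, MC had a single gene 4-fold higher than PF, against 2.14% of all genes: Cldn15 (3.47). There were 12 genes 4-fold lower, against 5.56%, and the median was -0.80, and 0.11 for all genes. Esrp1 (-7.70), Cldn7 (-6.60), Dsc2 (-6.05), Ocln (-4.18), Marveld2 (-3.07) and Cldn4 (-2.89) were furthest apart. Cdh1 (0.33), Cgn (0.00) and Lsr (0.34) differed little. Probe sets ran from -6.05 to -3.16 for Dsc2, -3.15 to -0.63 for Dsg2, -2.98 to 0.82 for Dsp, -2.38 to 0.16 for Cldn3, -2.23 to 0.62 for Epcam, -1.83 to 1.98 for Cldn1, -0.80 to 1.54 for Marveld3 and -0.61 to 1.71 for Pkp2. Cholangiocyte markers were lower in MC for 8 of 15 (median -2.71) and hepatocyte markers for 11 of 18 (median -3.41), while keratins had 0 of 4 past the rule in either direction (median 0.27). Their part in the result was not tested.

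Perp, Cldn2, Dsp and Cldn1 were over 7 lower in HSC than in whole liver. In HSC 18 of 37 genes were 4-fold lower than in whole liver, against 10.9% of all genes, and 1, Jup (2.62), was higher, against 9.7%. The median was -1.94, and -0.04 for all genes. Perp (-8.90), Cldn2 (-7.53), Dsp (-7.40), Cldn1 (-7.02), Cgn (-5.91) and Pard6b (-5.60) were lowest. In VitA-GFP+ cells 9 were 4-fold lower, against 7.29%, and 5 higher, against 10.8%. Lowest were Cldn1 (-5.46), Dsc2 (-3.71), Ocln (-3.60), Cldn2 (-3.39), Cldn3 (-2.83) and Perp (-2.63), and the higher genes were Cldn15 (4.63), Cldn10 (4.08), Cldn7 (3.73), Epcam (2.55) and Esrp1 (2.39). The median of 0.16 became -0.21 with array medians made equal. In MC 10 were 4-fold lower, against 11.2%, and 5 higher, against 9.73%, with a median of -0.31. Lowest were Cldn1 (-7.24), Cldn3 (-5.09), Marveld2 (-4.27), Dsp (-4.02), Cdh1 (-3.52) and Prss8 (-3.33), and the higher genes were Cldn15 (6.84), Cldn10 (4.06), Pard6b (2.70), Marveld3 (2.51) and Cgn (2.24). With the 75th percentile as the minimum, 3 genes were higher in VitA-GFP+ cells, without Epcam and Esrp1, and 6 lower in MC, without Cdh1, Marveld2, Tjp3 and Prss8. Without suffixed probe sets the medians were -0.94 and -0.81. These 3 comparisons share the whole-liver array.

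Probe sets lay far apart for some genes in the comparisons with whole liver. For Cldn1 they ran from -7.02 to -0.18 in HSC, -5.46 to 0.13 in VitA-GFP+ cells and -7.24 to -0.04 in MC. For Esrp2 they ran from -5.60 to 0.35, -3.95 to 0.16 and -3.67 to -0.12 in the same order. In HSC those of Cldn2 ran from -7.53 to -4.00, of Dsp from -7.43 to -0.97, of Cgn from -5.91 to -0.30, of Lsr from -5.46 to 0.01, of Crb3 from -4.33 to -1.29, of F11r from -2.36 to -0.05 and of Pkp2 from -1.26 to 0.86. Those of Dsg2 ran from -3.10 to -0.97 in VitA-GFP+ cells, and in MC those of Dsp ran from -4.55 to -1.24 and of Marveld3 from 0.00 to 2.51. Hepatocyte markers were 4-fold lower than in whole liver for 18, 16 and 17 of 18 in HSC, VitA-GFP+ cells and MC, with medians of -5.76, -5.98 and -8.84.

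VitA-GFP+ cells, in which all 13 portal fibroblast markers were at or above the array median, had 27 of the 37 junction genes at or above it, against 18 in sham PF. They had 15 of 37 genes 4-fold higher, against 4.79% of all genes, and 0 lower, against 2.01%, with a median of 1.67 against -0.15 for all genes. With the mean over probe sets the count was 8 and the median 1.08, and Cldn2, Cldn3, F11r, Lsr, Cgn, Dsp and Epcam no longer met the rule. Cldn15 (4.36), Cldn7 (3.81), F11r (3.62), Cdh1 (3.26), Cgn (3.16) and Spint2 (3.01) led. Probe sets ran from -0.38 to 3.62 for F11r, 0.83 to 3.16 for Cgn, -0.56 to 2.67 for Cldn2, -0.86 to 2.38 for Marveld3, -1.55 to 2.31 for Lsr, -1.98 to 2.30 for Epcam, -0.60 to 2.14 for Dsp and 0.93 to 3.47 for Dsg2. All 4 keratins (median 4.69), 8 of 12 mesothelial markers (median 3.99), 11 of 18 hepatocyte markers (median 2.94) and 5 of 15 cholangiocyte markers (median 1.54) were 4-fold higher in VitA-GFP+ cells as well. So were 9 of 10 endothelial markers (median 4.31), 10 of 12 macrophage markers (median 4.07), 9 of 12 lymphocyte and neutrophil markers (median 2.72) and 3 of 14 stellate cell markers (median 0.95). Their part in the result was not tested.

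PF of biliary fibrosis against VitA-GFP+ cells, a comparison added after the values were seen, left 14 genes 4-fold higher, against 3.61% of all genes, and 2 lower, against 4.86%. The median was 1.32, and 0.16 for all genes. Esrp1 (4.36), Dsc2 (4.03), Dsp (3.41, probe sets 0.56 to 3.41), Marveld2 (3.18), Spint1 (2.84) and Dsg2 (2.73) were highest, and Cldn15 (-4.00) and Cldn10 (-3.17) were the lower genes. Probe sets ran from 0.02 to 2.56 for Cldn2 and 2.42 to 5.51 for Epcam. Cholangiocyte markers were 4-fold higher for 7 of 15 (median 1.81) and mesothelial markers lower for 6 of 12 (median -1.79). Every endothelial marker was 4-fold lower, from Lyve1 (-2.91) to Dnase1l3 (-6.08). Macrophage markers ran from Vsig4 (-4.59) to Csf1r (2.00), and lymphocyte and neutrophil markers from Cd3g (-4.25) to S100a8 (-0.19). Hepatocyte markers ran from Cyp3a11 (-3.40) to Hnf4a (4.73). The part of these cells in the result was not tested. This comparison, the sham pair and the preceding one share arrays with each other. Code series and Gapdh 3'/5' ratio differed between VitA-GFP+ cells (1.56) and both PF arrays (13.2 in sham, 10.2 in biliary fibrosis). Their part in the comparisons of VitA-GFP+ cells with PF was not tested.

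**Figure D4:**
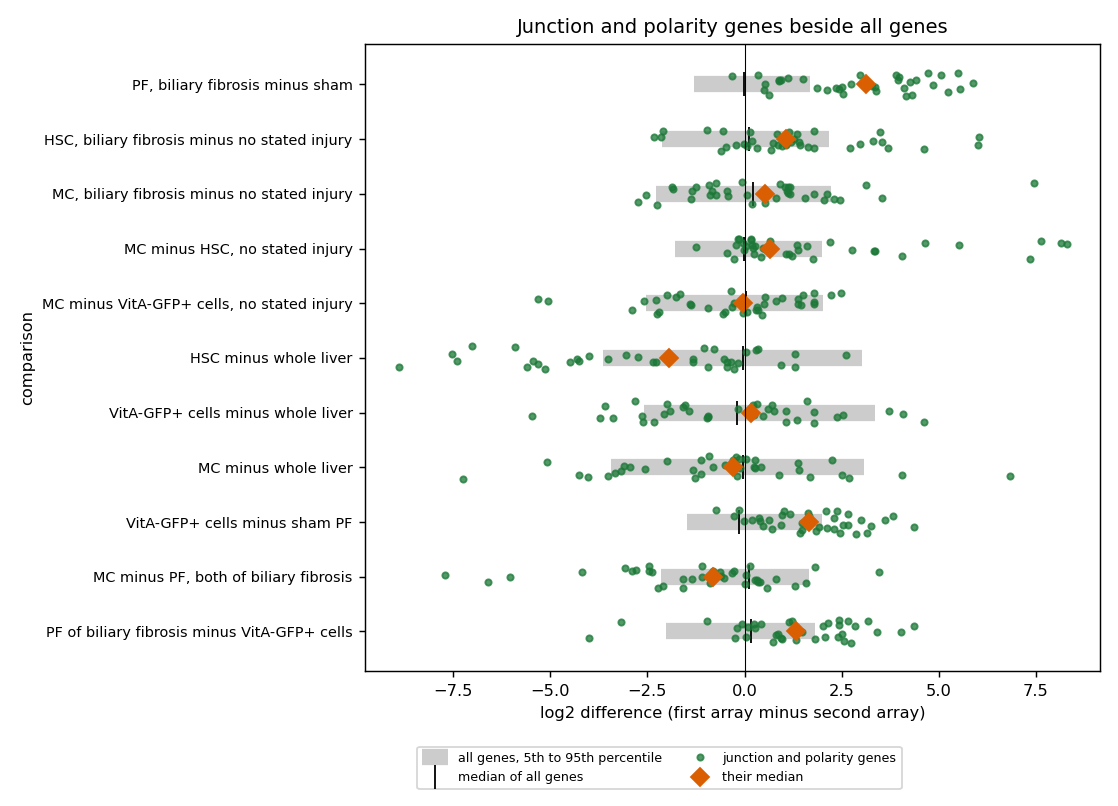
Log2 differences of the 37 genes (green points) in 11 comparisons, with their median (orange diamond), the median of all genes (black line) and the 5th to 95th percentile of all genes (grey bar). The orange diamond lies furthest right in the PF pair, at 3.12, and furthest left in HSC against whole liver, at -1.94.

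Other genes of the same structures were read from lists apart from the 37. In the PF pair, of 11 other claudins 2 were 4-fold higher (median 0.16), Cldn6 at 4.33 in sham PF and 9.95 in biliary fibrosis, and Cldn23 at 3.60 and 6.33. Of 14 other tight junction genes 3 were higher (median 0.08), namely Igsf5 (5.10 and 8.95), Cxadr (6.76 and 10.57) and Esam (4.72 and 7.56). Of 17 other adherens junction genes 2 were higher (median 0.93), the delta-catenin Ctnnd2 (5.38 and 8.53) and N-cadherin, Cdh2 (8.89 and 10.93). Of 7 other desmosome genes 2 were higher (median 1.48), Dsg1b (2.64 and 6.85) and Dsg1a (3.44 and 5.48), and of 17 other polarity genes 2 were (median 0.11), the tight junction protein Inadl (6.06 and 8.68) and the kinase Prkcz (4.66 and 6.70). None of these 5 lists had a gene 4-fold lower in this pair. The median differences of these 5 lists were 0.47, 1.19, 0.35, -0.07 and 0.40 in the HSC pair and 1.05, 0.54, 0.12, 0.11 and 0.58 in the MC pair, in the order given.

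Of 9 transcription factors of epithelial cells 3 were 4-fold higher in the PF pair (median 1.36). Ehf was at 4.46 in sham PF and 9.86 in biliary fibrosis, and Klf5 at 5.68 and 8.28. Grhl2, a grainyhead-like factor that drives junction genes, was at 6.74 and 9.04. In the HSC pair Klf5 (3.45) was 4-fold higher and Trp63 (-2.56) 4-fold lower (median 0.43). In the MC pair Grhl3 (3.23) and Klf5 (2.06) were 4-fold higher. Grhl2 was 4-fold lower there, at 6.78 with no stated injury and 4.78 in biliary fibrosis. The 7 repressors of epithelial genes of the Zeb, Snail and Twist families had 0 genes past the rule in the PF pair (median -0.02) and in the HSC pair (median 0.05). In the PF pair Twist2 fell just short of 4-fold lower (-1.9997) and Zeb1 differed by -1.05. Of the 7, 4 had a difference below 0 in that pair and 3 above. In PF the levels in sham and biliary fibrosis were 12.44 and 11.38 for Zeb1, 11.54 and 10.70 for Zeb2, 10.13 and 10.20 for Snai2, and 9.85 and 7.85 for Twist2. These 4 repressors were thus above the array median on the array where 33 of the 37 junction genes were too. In the MC pair 2 repressors were 4-fold higher in biliary fibrosis (median 0.89), Zeb2 from 6.33 to 9.13 and Snai2 from 5.79 to 8.55, beside the higher level of Cdh1. In bulk arrays this does not show that a cell carried both.

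**Figure D5:**
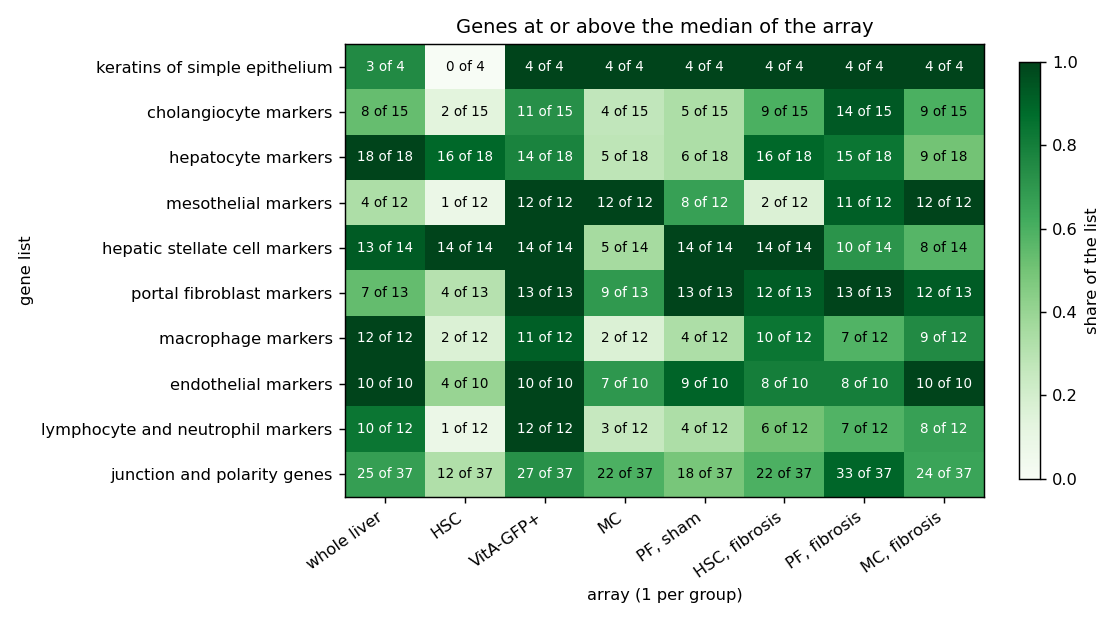
Number of genes at or above the median of the array (printed in each cell) out of the list's total, for 9 marker lists and the 37 junction and polarity genes, with colour giving the share of the list. Cholangiocyte markers are at 14 of 15 in PF of biliary fibrosis, the array with 33 of 37 junction genes. Mesothelial markers are at 11 of 12 and hepatocyte markers at 15 of 18 on that array. Keratins are at 0 of 4 in HSC with no stated injury, the array with 12 of 37 junction genes. They are at 4 of 4 on every other sorted array, including sham PF with 18 of 37.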

How the data were processed

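RNA of 8 samples was measured on Affymetrix mouse arrays. Per the submitters' processing notes, Partek and RMA were used by the authors to make the deposited intensity values. Their versions, and whether all 8 arrays were normalized jointly, are not given in the sources used here. The values are linear, and log2 was taken here. Both deposited tables are identical in their values (largest difference 0).

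Of 45101 probe sets, 38011 name 1 gene, 1280 several, 5746 none, and 64 are controls. Each of 22479 symbols was represented by its probe set of highest mean over the arrays. The 37 genes have 69 probe sets, none shared with another symbol, and 18 of the genes have 1 probe set. All 37 matched RefSeq gene identifiers. Promoter sequences are RefSeq's, GRCm38.p6.

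With 1 array per group no test was run and array number limits the precision. The genes, lists, size rule and comparisons were chosen with earlier results of these data known. By the rule for named genes, levels on all arrays are given for the 3 genes of widest range per role (5 claudins, all in small roles) plus Tjp1, Cldn7 and Cldn15. Per comparison up to 6 genes of largest difference in each direction are named, of other lists up to 4, and ranges over probe sets where these lie over 2 apart.

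Alternatives were the mean over probe sets, probe sets without _s_at or _x_at suffix, a repeated quantile normalization, equal array medians, a minimum level at the 75th percentile or none, a 2-fold rule and, chosen after seeing the data, VitA-GFP+ cells as the control for PF of biliary fibrosis. The steps were tested on a copy of the sham PF array with little noise, in which differences larger than the size rule were planted in bright genes. Such a test checks the working of the steps. It cannot show how reliable a difference between single arrays is. Python 3.11.15, numpy 2.4.6, pandas 2.3.3 and matplotlib 3.10.9 were used.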

Additional observations from a re-analysis of the deposited data

Results flagged for a closer look

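For 3 genes the fibrosis pairs of different fractions went in opposite directions, each past 4-fold. The difference between the pairs was not tested, since each pair is 2 arrays. How many of all genes did the same was not counted. With the 75th percentile as the minimum level, Ocln no longer met the rule in the MC pair. Marveld3 then met it in neither the PF nor the HSC pair. Dsc2, a desmosomal cadherin, was 4.41 higher in PF of biliary fibrosis than in sham PF and differed by -2.54 in the MC pair, so the pairs lay 6.95 apart. The mean of its probe sets differed by 3.70 and -1.46. Ocln (occludin) differed by 4.26 in the PF pair and -2.26 in the MC pair, which lay 6.52 apart, and the mean of its probe sets gave -0.53 in the MC pair. Marveld3, a tight junction membrane protein, differed by 3.12 in the PF pair and -2.15 in the HSC pair, which lay 5.26 apart, and the mean of its probe sets gave 0.97 and -0.44.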

How the results depend on the processing

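Each group is 1 array, so nothing here measures variation between animals, and a median of the 37 genes counts as moved at over 0.5 (log2). No paired analysis was possible because each group has 1 array. Equal array medians and the lack of a minimum level moved none of the counts or medians past their bounds, although the medians near 0 changed sign with equal array medians in MC against VitA-GFP+ cells (0.13) and VitA-GFP+ cells against whole liver (-0.21). With the mean over probe sets, the median of the PF pair was 2.35, the MC pair had 1 gene 4-fold lower, and VitA-GFP+ cells against sham PF had 8 higher and a median of 1.08. Without _s_at and _x_at probe sets, which leaves out Cldn10 and Jup, the HSC pair had 1 gene lower and HSC against whole liver 0 higher, and medians against whole liver were -0.94 in VitA-GFP+ cells and -0.81 in MC. Quantile normalization gave 4 genes higher in MC against VitA-GFP+ cells. With the 75th percentile as minimum level, the HSC pair had 3 higher and 1 lower, the MC pair 3 higher, MC against VitA-GFP+ cells 3 lower, VitA-GFP+ cells against whole liver 3 higher and MC against whole liver 6 lower. With a 2-fold rule, which calls more genes by construction, the HSC pair had 17 higher, the MC pair 12 higher and 8 lower, MC against HSC 17 higher and 1 lower, and MC against VitA-GFP+ cells 9 higher. By the same rule HSC against whole liver had 3 higher, VitA-GFP+ cells 10 higher and 14 lower and MC 8 higher, and MC against PF, both of biliary fibrosis, had 4 higher. Set against VitA-GFP+ cells instead of sham PF, chosen after seeing the data, PF of biliary fibrosis had 14 higher, 2 lower and a median of 1.32. Apart from the removal of suffixed probe sets, the fewer genes past a higher minimum and the 2-fold rule, the cause of these shifts was not tested. Genes below an array's median carry little signal, which limits what can be said of Cldn1, Cldn4, Pkp1 and Ap1m2 on most arrays.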
